A study of Mus musculus with 6 samples.

Results

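Hells, Cdca7, Cdca7l, Dnmt1, Uhrf1, Uhrf2, Dnmt3a and Dnmt3b encode the HELLS remodeler, its partners and the enzymes that copy or place DNA methylation. These 8 genes, found by symbol among the 24062 of the count table, were compared in mouse retinae of 2 genotypes at postnatal day 21, with 3 retinae each: Rb1/p107/Hells, the triple knockout (TKO), against Rb1/p107, the double knockout (DKO). All 8 were among the 16904 genes with at least 10 counts over the 6 libraries. Every mouse of both groups carried Chx10-Cre, floxed Rb1 alleles (Rb1 lox/lox) and a germline deletion of p107 (p107-/-), and the TKO mice were also Hells lox/lox. The labels give the strain as C57BL/6 and the study's methods as C57BL/6N, and the DKO mice served as the controls. The labels and methods used here do not state whether each retina came from a separate mouse, so p-values measure only the spread between these samples. Chx10-Cre acts in retinal progenitors and is mosaic, so a retina of either group also holds cells that kept their floxed alleles. The question of the experiment was which early changes in the retina accompany the loss of Hells when the RB pathway is already off.

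HELLS, also called LSH, is an ATP-driven helicase of the SNF2 family that slides nucleosomes. By itself it remodels poorly, and CDCA7, a zinc finger protein, recruits it to nucleosomes and activates it, while CDCA7L is the paralog of CDCA7. UHRF1 recognises DNA that is methylated on a single strand after replication and brings in DNMT1, which methylates the new strand, whereas DNMT3A and DNMT3B methylate sites that carried no mark and UHRF2 is the paralog of UHRF1. Mutations in human HELLS, CDCA7 or DNMT3B cause the ICF syndrome of immunodeficiency and centromere instability. HELLS, UHRF1 and DNMT1 are abundant in dividing cells, and many genes of DNA replication are E2F targets held down by the RB family in cells that have left the cycle.

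The Hells allele of the TKO mice targets exon 12, and its sequence is shown because it is the part of the gene that Cre was meant to remove. In the transcript Hells-201 (22 exons, 5868 bases, GENCODE M21 on GRCm38) the exon is coding and lies on the plus strand of chromosome 19 from 38951835 to 38951931:
Hells exon 12: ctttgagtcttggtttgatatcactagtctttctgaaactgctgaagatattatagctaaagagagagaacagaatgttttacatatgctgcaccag
Its 97 bases leave a remainder of 1 when divided by 3. Joining exon 11 to exon 13 in this transcript would shift the reading frame, and a stop codon would follow 394 codons, of which the last 2 are not in the normal protein of 821 residues. Counts were summed over all exons of a gene, and exon 12 makes up 1.65% of the transcript, so the count of Hells does not show by itself whether the exon was present.

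The letters of the E2F site were looked for in RefSeq promoters of the same build, each from 250 bases before to 50 bases after an annotated start. All 8 genes matched by symbol, with 13 promoters. The letters searched on both strands were TTTCCCGC, TTTCGCGC, TTTGCCGC and TTTGGCGC. Promoters of 4 genes held them, Hells, Cdca7, Uhrf1 and Dnmt1, and these stretches of 30 bases are shown, read along the gene, with the matching letters in capitals:
Hells: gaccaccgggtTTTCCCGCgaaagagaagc
Cdca7: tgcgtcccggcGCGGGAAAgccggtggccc
Uhrf1: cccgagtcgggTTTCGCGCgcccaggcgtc
Dnmt1: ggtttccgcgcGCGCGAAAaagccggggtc
The Hells stretch lies at chr19:38930917-38930946 on the plus strand, and its letters begin 62 bases before the RefSeq start, inside the first exon as GENCODE draws it. In Cdca7 (chr2:72476137-72476166, plus strand) the letters are on the opposite strand, 71 bases before the start. The Uhrf1 stretch (chr17:56304117-56304146, plus strand) belongs to the promoter of the second of 2 annotated starts and its letters begin 185 bases before it. For Dnmt1 (chr9:20952824-20952853, minus strand) the promoter was that of the third of 3 starts, with letters on the opposite strand 219 bases before the start and a further match, TTTGGCGC, 33 bases after it. Of all 32851 promoters of that length, 2.26% held at least 1 match, as did 13 of 37 promoters (35.1%) of a list of DNA replication genes and 1 of 26 (3.85%) of a list of mitotic genes. No match was found in the windows of Cdca7l, Uhrf2, Dnmt3a or Dnmt3b, which says only that these letters are not in those windows. The letters of the CHR element of mitotic genes, TTTGAA and TTCGAA, were found at Dnmt3b and at the first start of Dnmt1, against 19.2% of all promoters and 80.8% of the promoters of a list of mitotic genes. A match is a description of the sequence and not a bound site. Counts of the dinucleotide CpG, the target of the methyltransferases, were high in most of these windows, with 34 at Hells, 26 at Cdca7 and 46 at Cdca7l, against a median of 7 over all promoters.

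The libraries held between 10343907 and 14203098 counts. Counts were scaled between libraries (TMM), and levels below are these normalized counts unless another scale is named. Rod markers were present in every library, so the label of retina held. The groups differed in much more than the 8 genes. All 8 rod markers were higher in TKO retinae, with a median log2 fold change of 1.81, and their summed level was 54128, 46157 and 26657 CPM (counts per 1000000 counts) in TKO replicates 1, 2 and 3 against 9394, 9085 and 17328 in DKO replicates 1, 2 and 3. Genes of DNA replication and mitosis went the other way, and TKO replicate 3 and DKO replicate 3 were the libraries nearest to the other genotype in all of these sums. Summed over 28 mitotic genes, the level was 2265, 3247 and 5607 in TKO replicates 1, 2 and 3, and 23846, 18671 and 11636 in DKO replicates. Of 7 microglial markers, 5 were lower in TKO retinae, and the list summed to 96.2, 123 and 176 CPM in TKO and 277, 338 and 235 CPM in DKO retinae, with Csf1r its most abundant gene and no marker at 0. Of 7 lens markers, 3 were higher in TKO retinae, most of all in TKO replicate 2 (238 CPM against 44.3 and 37.4 in the other two, and 8.19 to 8.33 in DKO retinae). Cryaa was the most abundant lens gene, and Lim2 was at 0 in TKO replicate 1 and in every DKO library.

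Markers of Muller glia, the radial glia of the retina, were also higher in sum in every TKO retina, at 4133, 3847 and 3426 CPM against 2277, 2046 and 2150 CPM in DKO retinae. Of 6 such markers 3 were higher, Glul (glutamine synthetase, the most abundant, log2 fold change 1.15), Rlbp1 and Kcnj10. Kcnj10 did not pass without TKO replicate 1, TKO replicate 2 or DKO replicate 2. With total counts in place of TMM, 2 of the 6 markers were higher. Of 6 cone markers, 2 were higher, Opn1sw and Arr3, and the list summed to 1340, 926 and 506 CPM in TKO retinae and 351, 402 and 578 CPM in DKO retinae, with overlap. None of the cone markers passed with edgeR's robust dispersions, nor without TKO replicate 1, TKO replicate 2, DKO replicate 1 or DKO replicate 2. In contrast, 6 passed without TKO replicate 3 and 5 without DKO replicate 3. Of 5 markers of the retinal pigment epithelium, Rpe65 alone was higher (log2 fold change 3.03). It did not pass with robust dispersions, nor without TKO replicate 1, TKO replicate 2, DKO replicate 1 or DKO replicate 2. With a filter of 10 counts in every library, 3 markers of the list were tested and 0 were higher. That list summed to 82.2, 157 and 56.0 CPM in TKO and 16.0, 61.9 and 72.6 CPM in DKO retinae, with overlap. Of the bipolar and endothelial lists of 5 markers each, 1 was higher in each, Cabp5 and Pecam1, and neither passed without TKO replicate 1, TKO replicate 2, DKO replicate 1 or DKO replicate 2, nor Cabp5 with total counts in place of TMM. The amacrine, ganglion and horizontal cell lists had median log2 fold changes of -0.095, 0.14 and -0.87, and none of their markers passed. The horizontal median was -0.57 without TKO replicate 1 and -1.58 without TKO replicate 3, where 2 of its 3 markers were lower. With DESeq2, total counts, robust dispersions or another filter, 1 horizontal marker was lower. With DESeq2 or total counts, or without TKO replicate 3 or DKO replicate 3, 1 amacrine marker was lower. Leaving out TKO replicate 2, DKO replicate 1 or DKO replicate 2 left 5, 4 or 3 rod markers that passed, and 0, 1 or 0 microglial markers. Without DKO replicate 1 or DKO replicate 2, 1 of the lens markers passed. In whole retinae, fewer cells of a type and less RNA per cell cannot be told apart, and the part of these markers in the results below was not tested.

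Of the 8 genes, 5 were lower in TKO retinae, Hells, Uhrf1, Cdca7, Cdca7l and Dnmt1, with edgeR's quasi-likelihood F test as the test and 0.05 as the limit of the adjusted p. Over all 16904 genes, 9.2% passed in that direction. None passed as higher, where the share of all genes was 7.35%. At an unadjusted p of 0.05, 1 gene, Dnmt3a, was higher, and DESeq2 called 5 lower and 0 higher. By the study's stricter criteria, a log2 fold change of at least 1 in size and a mean of at least 10 normalized counts, 4 were lower (all but Dnmt1), against 4.4% of all genes. These criteria were applied here to edgeR's adjusted p, where the study used DESeq2, so this share is not the study's own. The TKO libraries lay wholly below the DKO libraries for the same 5 genes and wholly above for Dnmt3a, and overlapped for Uhrf2 and Dnmt3b. Over all genes 20.6% lay wholly below and 18% wholly above. Hells, the gene targeted in TKO mice, is in each of these counts of lower genes, and its call is not independent of the genotype. The other lower genes were Uhrf1, Cdca7, Cdca7l and, except by the study's criteria, Dnmt1. All genes together had a median of -0.011 on the log2 scale. The count of 5 changed with the libraries kept: without TKO replicate 2, DKO replicate 1 or DKO replicate 2, 2 genes passed, Hells and Cdca7l. In those fits 712, 811 and 647 of all genes passed, against 2799 with all libraries. The log2 fold changes there were -2.08, -2.09 and -2.17 for Cdca7, and -2.36, -2.25 and -2.40 for Uhrf1. For Dnmt1 they were -0.66, -0.60 and -0.73.

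**Figure D1:**
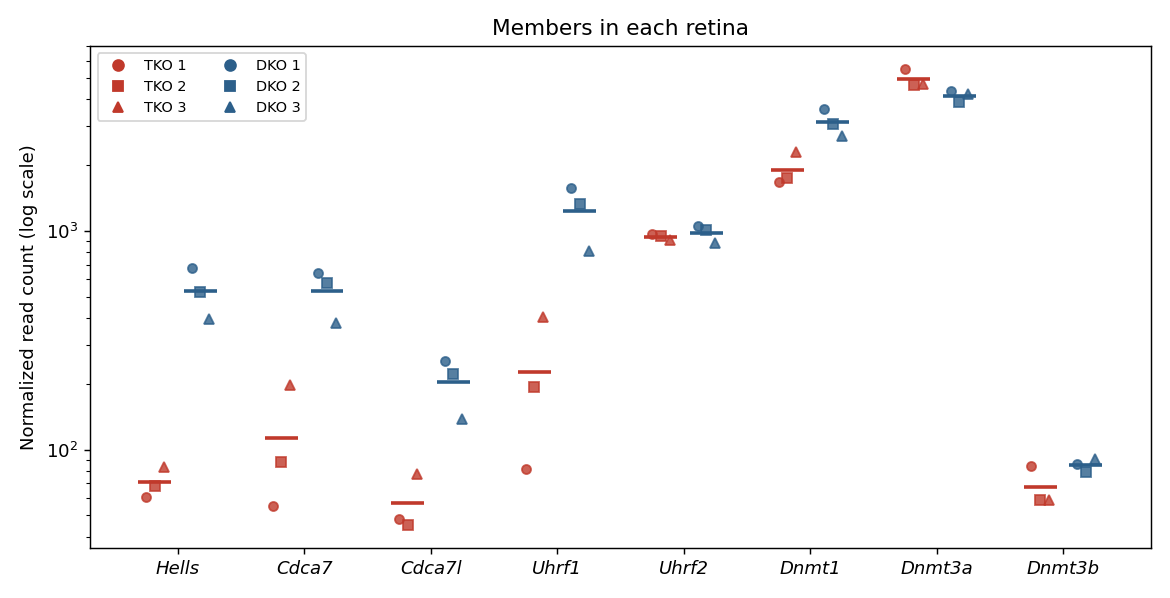
Normalized read counts on a log scale for the 8 genes, with a point for each retina (circle, square and triangle for replicates 1, 2 and 3), TKO in red, DKO in blue, and a bar at each group's mean. For Hells, Cdca7, Cdca7l, Uhrf1 and Dnmt1 every TKO point lies under every DKO point, whereas Uhrf2 and Dnmt3b overlap.

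**Figure D2:**
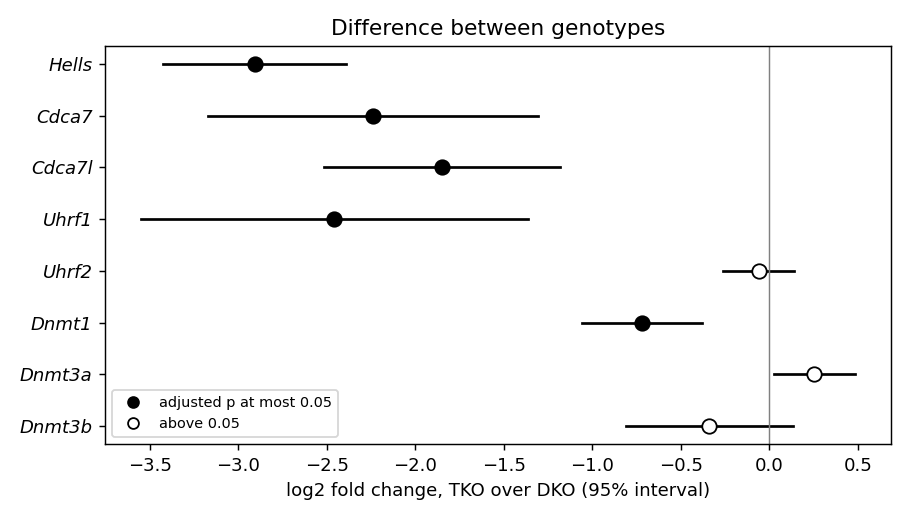
Log2 fold change of TKO over DKO for each gene with its 95% interval from edgeR, filled where the adjusted p was at most 0.05. The values run from -2.91 for Hells to 0.25 for Dnmt3a, and the Uhrf1 interval, -3.55 to -1.37, is the widest.

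Hells, the gene deleted in TKO mice, lies on chromosome 19 from 38930915 to 38971051, plus strand. It was read 53, 65 and 68 times in TKO replicates 1, 2 and 3, and 720, 597 and 457 times in DKO replicates 1, 2 and 3. All 3 TKO libraries were low and close to each other, and the groups were far apart. After scaling, the mean of Hells was 70.9 ± 11.5 in TKO against 532 ± 142 in DKO (SD, n = 3 each), so TKO retinae held 13.3% of the DKO level. The log2 fold change was -2.91 (standard error 0.225, edgeR adjusted p = 0.00359), and it was between -3.08 and -2.69 with any single retina left out. Of the 9 annotated genes that start within 500 kb of Hells, 3 had enough counts to test and none passed with edgeR or DESeq2, although 1 had an unadjusted edgeR p of at most 0.05.

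The other genes of the genotype were read in the same way, over all their exons. Rb1, which the same Cre deletes in both groups, averaged 748 ± 66.0 against 591 ± 23.5 counts, TKO against DKO, or 0.34 on the log2 scale (standard error 0.0912, edgeR adjusted p = 0.0388). That call was lost without any single one of TKO replicates 1 and 2 and DKO replicates 1, 2 and 3, and under total-count scaling. Rbl1, the gene of p107, had 20.3 ± 7.02 and 18.6 ± 4.87 counts, with overlapping groups.

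Cdca7 (chromosome 2, 72476159 to 72486893, plus strand), the activator of HELLS, was read 48, 83 and 161 times in TKO and 678, 662 and 438 times in DKO replicates 1, 2 and 3. The groups did not overlap, with TKO replicate 3 the highest of its group and DKO replicate 3 the lowest. Cdca7 averaged 113 ± 74.7 normalized counts in the TKO group and 532 ± 136 in DKO controls (log2 fold change -2.24, standard error 0.406, edgeR adjusted p = 0.0114). Within TKO retinae Cdca7 varied 3.59-fold between libraries, where Hells varied 1.37-fold. Leaving out TKO replicate 3 gave a log2 fold change of -2.89 (edgeR adjusted p = 0.00158). The call was lost without TKO replicate 2 (edgeR adjusted p = 0.0576), DKO replicate 1 (0.0513) or DKO replicate 2 (0.0511).

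Cdca7l, the paralog (chromosome 12, 117804289 to 117878706, plus strand), was read 42, 43 and 63 times in TKO and 271, 252 and 160 times in DKO replicates 1, 2 and 3. TKO and DKO libraries were again separate. It averaged 56.9 ± 17.7 normalized counts in the TKO group and 205 ± 60.1 in DKO controls (log2 fold change -1.85, standard error 0.290, edgeR adjusted p = 0.00815). Like Hells, Cdca7l passed with any single retina left out, at an edgeR adjusted p of at most 0.0430. The ratio of Cdca7 to Cdca7l within a library, which does not depend on scaling, was 1.47-fold lower in TKO retinae, but the groups overlapped (exact two-sided permutation test, p = 0.2, where 3 against 3 cannot give less than 0.1). The ratio of Hells to Cdca7 also overlapped between the groups (exact p = 0.4).

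Uhrf1 (chromosome 17, 56303321 to 56323486, plus strand), which binds hemimethylated DNA, was read 71, 184 and 328 times in TKO and 1662, 1518 and 939 times in DKO replicates 1, 2 and 3. Replicate 3 of each genotype was again the nearest to the other group, without overlap. Uhrf1 averaged 226 ± 163 normalized counts in the TKO group and 1235 ± 385 in DKO controls (log2 fold change -2.46, standard error 0.477, edgeR adjusted p = 0.0134). It was the most variable of the 8 genes within TKO retinae, with a 4.94-fold range. Without TKO replicate 3 its log2 fold change was -3.15 (edgeR adjusted p = 0.00248). The call was lost without TKO replicate 2 (edgeR adjusted p = 0.0660), DKO replicate 1 (0.0548) or DKO replicate 2 (0.0557), and with edgeR's robust dispersions (0.0552).

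Uhrf2 (chromosome 19, 30030513 to 30093722, plus strand), the paralog of Uhrf1, gave 841, 902 and 740 counts in TKO against 1115, 1156 and 1022 in DKO replicates 1, 2 and 3. After scaling, the groups overlapped at 941 ± 29.1 and 981 ± 87.6 normalized counts. The log2 fold change was -0.061 with a 95% interval from -0.26 to 0.14 (edgeR adjusted p = 0.669). The ratio of Uhrf1 to Uhrf2 within a library was 6.18-fold lower in TKO retinae with no overlap (exact two-sided permutation p = 0.1, the smallest possible, and 0.15 after adjustment over 6 ratios). In CPM per kb of exon, a scale that compares genes through their annotated exon lengths, Uhrf2 was above Uhrf1 in every TKO library (8.36 to 8.88 against 1.51 to 7.47). In every DKO library Uhrf2 was below Uhrf1, at 8.12 to 9.66 against 15.0 to 29.0 CPM per kb.

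Dnmt1, the maintenance methyltransferase (chromosome 9, 20907209 to 20959888, minus strand), gave 1454, 1655 and 1868 counts in TKO against 3833, 3513 and 3127 in DKO replicates 1, 2 and 3. The groups were separate, but much closer than for Hells. Dnmt1 averaged 1901 ± 341 normalized counts in the TKO group and 3128 ± 456 in DKO controls (log2 fold change -0.72, standard error 0.149, edgeR adjusted p = 0.0163). TKO retinae thus held 60.8% of the DKO level of Dnmt1, where they held 18.3% of that of Uhrf1. The call was lost without TKO replicate 1 (edgeR adjusted p = 0.0546), TKO replicate 2 (0.0755), DKO replicate 1 (0.0604) or DKO replicate 2 (0.0614). The ratio of Dnmt1 to Uhrf1 was 3.89-fold higher in TKO retinae with no overlap (exact two-sided permutation p = 0.1, adjusted 0.15).

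Dnmt3a, a de novo methyltransferase (chromosome 12, 3806007 to 3914443, plus strand), gave 4802, 4392 and 3831 counts in TKO against 4611, 4437 and 4888 in DKO replicates 1, 2 and 3. After scaling, every TKO library lay above every DKO library, at 4944 ± 489 against 4148 ± 236. The log2 fold change was 0.25 with a 95% interval from 0.024 to 0.48 (edgeR adjusted p = 0.119), so Dnmt3a did not pass, and with total counts in place of TMM it was 0.094. Dnmt3b (chromosome 2, 153649450 to 153687730, plus strand), the de novo enzyme mutated in ICF syndrome, gave 73, 56 and 48 counts in TKO against 91, 90 and 105 in DKO replicates 1, 2 and 3. Its groups overlapped after scaling, at 67.2 ± 14.3 and 85.0 ± 5.96 (log2 fold change -0.34, 95% interval -0.81 to 0.13, edgeR adjusted p = 0.286). Within a library, the ratios of Dnmt1 to Dnmt3a and of Dnmt3b to Dnmt3a were 1.96-fold and 1.52-fold lower in TKO retinae, each without overlap (exact two-sided permutation p = 0.1, adjusted 0.15).

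Levels of different genes were compared as CPM per kb of exon. The length was that of all annotated exons of a gene, 16642 bases for Dnmt3a and 7205 for Hells, where the transcript Hells-201 has 5868. The order of genes and the shares below therefore depend on these lengths, and which transcripts were in use was not tested. In DKO retinae Dnmt1 led at 33.5 ± 4.89 CPM per kb, followed by Uhrf1 at 22.9 ± 7.16, Dnmt3a at 19.7 ± 1.12, Cdca7 at 13.1 ± 3.37, Uhrf2 at 9.03 ± 0.807, Hells at 5.83 ± 1.56, Cdca7l at 4.96 ± 1.46 and Dnmt3b at 1.32 ± 0.0922 (SD, n = 3). Neighbours in this order had overlapping libraries except Dnmt3a and Cdca7, Uhrf2 and Hells, and Cdca7l and Dnmt3b. In TKO retinae the order was Dnmt3a at 23.5 ± 2.32 CPM per kb, Dnmt1 at 20.4 ± 3.66, Uhrf2 at 8.66 ± 0.268, Uhrf1 at 4.19 ± 3.02, Cdca7 at 2.80 ± 1.85, Cdca7l at 1.38 ± 0.430, Dnmt3b at 1.04 ± 0.222 and Hells at 0.778 ± 0.127. Here Dnmt1 and Uhrf2 were separate, as were Uhrf2 and Uhrf1, and the other neighbours overlapped. Hells thus went from sixth of the 8 genes in DKO to last in TKO retinae, where its libraries overlapped with those of Dnmt3b. Of the summed CPM per kb of Dnmt1, Dnmt3a and Dnmt3b, Dnmt1 made up 61.3% ± 3.39 in DKO and 45.2% ± 5.98 in TKO retinae. The Dnmt3a share was 36.3% and 52.4%, while the Dnmt3b share was 2.43% and 2.32%.

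**Figure D3:**
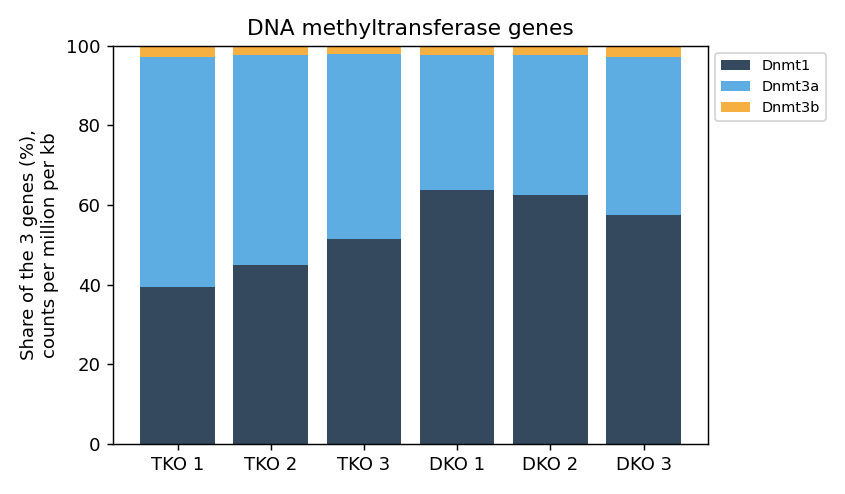
Share of Dnmt1, Dnmt3a and Dnmt3b in their summed CPM per kb of exon, as a stacked bar for each retina. Dnmt1 takes 39.4% to 51.4% in the TKO retinae and 57.4% to 63.8% in the DKO retinae.

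Because many of these genes follow cell division, each was also set against genes of dividing cells within the same library. Against the summed counts of 42 DNA replication genes, Hells was 3.61-fold lower in TKO than in DKO retinae, Uhrf1 3.14-fold, Cdca7 2.58-fold and Cdca7l 1.75-fold lower, all without overlap. On this scale TKO replicates were nearly level for Hells, with a log2 ratio of -7.61, -7.59 and -7.62, against -5.56, -5.84 and -5.85 in DKO replicates 1, 2 and 3. Relative to the same sum Dnmt1 was 1.24-fold, Uhrf2 1.96-fold and Dnmt3a 2.43-fold higher in TKO retinae, and Dnmt3b overlapped. Hells, Uhrf1, Cdca7 and Cdca7l therefore lay further apart between the genotypes than the replication genes as a sum, and Dnmt1 less far. A sum gives abundant genes more weight, and Rpa1, the most abundant of the list, had a log2 fold change of only -0.18. Taken singly, the 42 genes had log2 fold changes from -2.68 to -0.12, with a median of -1.15. Hells (-2.91) lay beyond that range, whereas Uhrf1 (-2.46), Cdca7 (-2.24), Cdca7l (-1.85) and Dnmt1 (-0.72) lay within it.

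Against 28 mitotic genes the picture was another one. Hells was 1.47-fold lower in TKO retinae without overlap, while Cdca7 (1.05-fold lower) and Uhrf1 (1.28-fold lower) overlapped between the groups. The gap for Hells was narrow. Its log2 ratio was -5.22, -5.57 and -6.07 in TKO replicates 1, 2 and 3, against -5.14, -5.16 and -4.88 in DKO replicates 1, 2 and 3. Relative to the mitotic sum Cdca7l was 1.40-fold, Dnmt1 3.03-fold, Dnmt3b 3.91-fold, Uhrf2 4.81-fold and Dnmt3a 5.96-fold higher in TKO retinae, without overlap. For each of the separate groups the exact two-sided permutation p was 0.1, the smallest possible with 3 against 3, and 0.123 after adjustment over 16 ratios. None of the 16 ratios can thus pass 0.05 in this design.

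**Figure D4:**
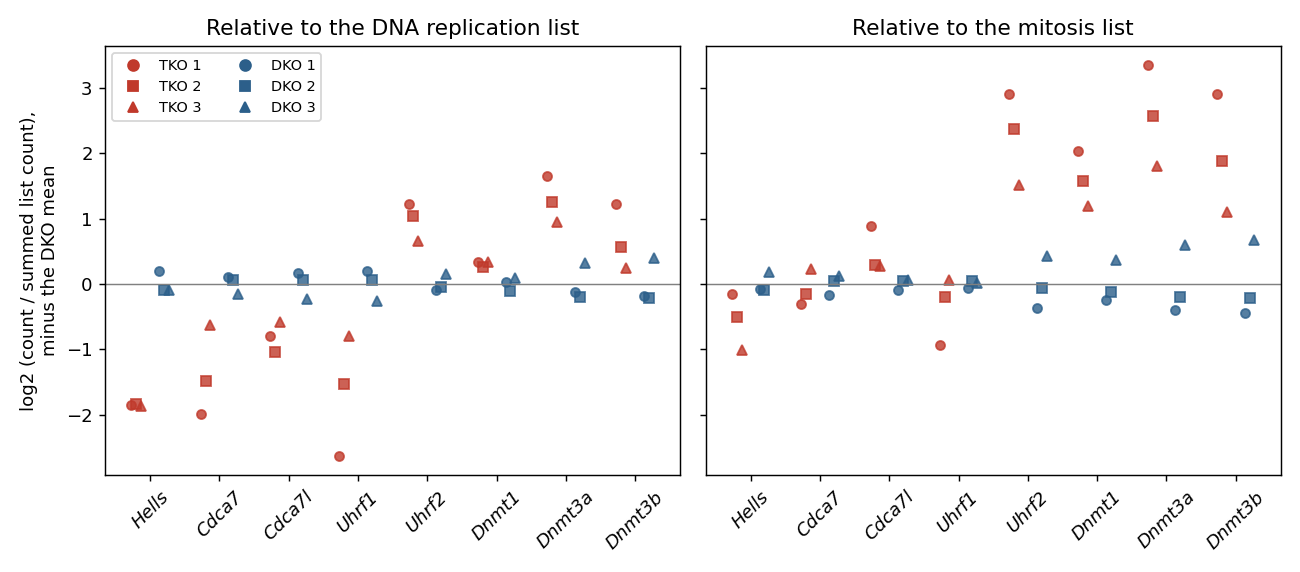
Log2 ratio of each gene's count to the summed count of the DNA replication list (left) and of the mitosis list (right) in the same library, shown relative to the DKO mean, with a point for each retina. Hells, Cdca7, Cdca7l and Uhrf1 are lower in every TKO retina on the left, and on the right Hells alone is lower in every TKO retina. There TKO replicate 1 lies close under the DKO retinae for Hells.

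The genes that work with these 8 were described by list, each list by its counts and median beside the median of all genes, -0.011, and the shares of all genes called, 9.2% lower and 7.35% higher. Over the 11 lists 95 of 158 genes tested passed in either direction, and leaving out TKO replicate 2, DKO replicate 1 or DKO replicate 2 left 29, 47 or 39 that passed. Scaling by total counts instead of TMM brought the all-gene median down to -0.17. The medians of the de novo, demethylation, reader, methyl donor and SNF2 lists then turned from above 0 to -0.043, -0.11, -0.15, -0.0056 and -0.13, and upper-quartile scaling turned those of the reader and SNF2 lists to -0.028 and -0.00093. Of 7 partners of methylation maintenance, 5 were lower and 0 higher in TKO retinae, with a median log2 fold change of -0.48 (0 higher also at an unadjusted p of 0.05 and by DESeq2). Pcna, the clamp that carries enzymes behind the replication fork, fell from 2964 ± 647 to 1230 ± 284 normalized counts (log2 fold change -1.27, edgeR adjusted p = 0.00821). Lig1, which seals the new strand and recruits UHRF1, had a log2 fold change of -1.06, and 2810417H13Rik, an older symbol of the PCNA partner Pclaf, one of -2.41. The deacetylase genes Hdac1 and Hdac2 fell by 0.33 and 0.48 on the log2 scale, and neither passed without TKO replicate 1, TKO replicate 2, DKO replicate 1 or DKO replicate 2, nor Hdac1 without TKO replicate 3. Usp7, which stabilises UHRF1 and DNMT1, had 2905 ± 208 counts in TKO retinae against 2691 ± 155 in DKO, with overlap, and Dmap1, a DNMT1 partner, 412 ± 23.4 and 369 ± 26.9. Neither passed.

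Lists around de novo methylation, demethylation and reading of the mark held 2 genes that passed, Tet3 and Zbtb4, both higher, and with 3, 4 and 7 genes tested no more is read from these counts, since 7.35% of all genes were higher. Of the de novo and ICF list, 3 of 4 genes had enough counts, Zbtb24 of the ICF syndrome and the histone methyltransferases Nsd1 and Setd2, and none passed (edgeR, 0 also at an unadjusted p of 0.05 and by DESeq2), with a median log2 fold change of 0.11 (0.20 without DKO replicate 1 and 0.044 without DKO replicate 2). Dnmt3l, the cofactor of DNMT3A, was under the count minimum. Tet3, which oxidises methylcytosine, rose from 1525 ± 170 to 2569 ± 455 normalized counts (log2 fold change 0.75, edgeR adjusted p = 0.0122) and was the only one of 4 tested demethylation genes to pass, with Tdg under the count minimum. The list's median of 0.052 on the log2 scale had no stable sign, at -0.24 with no filter on low counts. Leaving out TKO replicate 1, DKO replicate 2 or DKO replicate 1 gave -0.031, -0.035 or 0.23. Tet3 did not pass without TKO replicate 2, DKO replicate 1 or DKO replicate 2. Tet1 had 864 ± 10.8 counts in TKO retinae against 1020 ± 153 in DKO, and Tet2 685 ± 123 and 540 ± 92.2, neither past the threshold. For Tet1 the TKO libraries lay wholly below the DKO libraries, and it passed as lower in 1 of 15 alternative settings. Of 7 readers of methylated DNA, with a median of 0.0049 on the log2 scale (0.0043 to 0.047 with 1 retina left out), 1 passed, Zbtb4, higher by 0.56 on the log2 scale, and it did not pass without TKO replicate 1, TKO replicate 2, DKO replicate 1 or DKO replicate 2.

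Histone H3 lysine 9 methylation marks the heterochromatin at which HELLS also acts. Of 9 genes of that list, 2 were lower and 1 higher in TKO retinae (22.2% and 11.1%, where all genes gave 9.2% and 7.35%). The list's median was -0.17 on the log2 scale, with 8 of 9 below 0 (median -0.27 without DKO replicate 3). Suv39h2, a lysine 9 methyltransferase, rose by 0.82 on the log2 scale, from 254 ± 11.6 to 449 ± 63.3 normalized counts (edgeR adjusted p = 0.00755), and passed with any single retina left out. Cbx5, which encodes HP1 alpha, fell by 0.55 and Trim28, the KAP1 corepressor, by 0.34, and neither passed without TKO replicate 1, TKO replicate 2, DKO replicate 1 or DKO replicate 2. Of the methyl donor list, 2 of 9 genes were lower and 1 higher, the same shares, with a median of 0.16. The serine hydroxymethyltransferase genes Shmt1 and Shmt2 fell by 1.37 and 0.41, and Ahcyl1, a gene related to Ahcy, rose by 0.48. These 3 did not pass without TKO replicate 1, TKO replicate 2, DKO replicate 1 or DKO replicate 2. Mat2a, which makes S-adenosylmethionine, had 5859 ± 537 counts in TKO retinae against 4991 ± 217 in DKO and did not pass (edgeR adjusted p = 0.139). Ahcy itself had a log2 fold change of -0.16, with overlapping groups, and did not pass (edgeR adjusted p = 0.243).

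Among the other SNF2-family ATPases, 4 of 26 tested were lower (15.4%) and 5 higher (19.2%), with a median log2 fold change of 0.032, which was -0.0027 without TKO replicate 1 and 0.12 without DKO replicate 1. The lower ones were Rad54l and Rad54b of homologous recombination, Ercc6l of the mitotic centromere and Ttf2, with log2 fold changes of -1.91, -0.88, -1.82 and -0.95. Chd7, Hltf, Btaf1, Chd2 and Smarca2 rose by 0.70, 0.51, 0.49, 0.35 and 0.35. Chd4 and Chd3, of the NuRD complex, had the most counts of the list and differed by -0.046 and -0.049 with overlapping groups. The 4 lower genes did not pass without TKO replicate 1, TKO replicate 2, DKO replicate 1 or DKO replicate 2, and of the list 1 was then higher without TKO replicate 1, 2 without DKO replicate 1 and none without TKO replicate 2 or DKO replicate 2. With total counts in place of TMM, 7 were lower and 3 higher.

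The E2F and pocket protein genes split, with 6 of 13 lower and 3 higher and a median log2 fold change of -0.20 (-0.34 without DKO replicate 2 and -0.087 without DKO replicate 3). E2f1, an activator of S phase genes, fell from 664 ± 154 to 191 ± 99.7 normalized counts (log2 fold change -1.80, edgeR adjusted p = 0.0132), and E2f8, Tfdp2 and Tfdp1 fell by 1.84, 0.82 and 0.55 on the log2 scale. The repressor E2f4 rose by 0.36 and the pocket protein Rbl2 (p130) by 0.31, Rb1 being the third higher gene. These 3 did not pass with total counts in place of TMM, nor without TKO replicate 1, TKO replicate 2, DKO replicate 1 or DKO replicate 2. Of the 6 lower genes 3 passed without DKO replicate 1, and none without TKO replicate 2 or DKO replicate 2.

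The DNA replication list held 42 genes, of which 37 were lower in TKO retinae and 0 higher (0 also at an unadjusted p of 0.05 and by DESeq2), with a median log2 fold change of -1.15. Mcm6, Mcm7 and Mcm4 of the replicative helicase fell by 2.12, 1.33 and 1.28 on the log2 scale, and Rrm1, of deoxynucleotide synthesis, by 1.30. Rpa1 and Rfc1 had overlapping groups. In the mitosis list 27 of 28 were lower and 0 higher (0 also at an unadjusted p of 0.05 and by DESeq2), with a median of -2.55. Top2a, the mitotic topoisomerase, fell by 3.21 and Mki67, the Ki-67 antigen, by 2.52 on the log2 scale. Over 15 alternative settings the log2 fold change ranged from -3.92 to -2.86 for Top2a and from -3.29 to -2.14 for Mki67. Mki67 and Mcm4 did not pass without TKO replicate 2, DKO replicate 1 or DKO replicate 2, nor Mki67 with robust dispersions, and Mcm6 did not pass without TKO replicate 2. Beside these medians, the log2 fold changes of the 5 lower genes were -2.91 for Hells, -2.46 for Uhrf1, -2.24 for Cdca7, -1.85 for Cdca7l and -0.72 for Dnmt1, the last smaller in size than both medians. Without TKO replicate 2, DKO replicate 1 or DKO replicate 2, 12, 17 and 14 of the replication genes passed as lower, and 13, 21 and 21 of the mitotic genes did.

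Germline genes are a classic set silenced by promoter methylation, which maintenance by DNMT1 and UHRF1 preserves in somatic tissue. Of 17 such genes, 10 reached the count minimum, and none passed in either direction (edgeR), with a median log2 fold change of -0.00094 (-0.097 to 0.049 with 1 retina left out). Stricter filters on low counts gave a median of -0.22 (edgeR's filterByExpr) or -0.40 (10 counts in every library). Total-count scaling gave -0.16. At an unadjusted p of 0.05, 1 was higher and 0 lower, and DESeq2 called 0, with no adjusted p for 3 of them. Brdt, with the most counts, had 141 ± 7.91 in TKO and 146 ± 9.89 in DKO retinae, and Ddx4 29.0 ± 13.5 and 37.7 ± 9.05. The other 8 had at most 50 normalized counts in any library, so modest differences were not detectable at this depth. DNA methylation itself was not measured in these libraries.

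**Figure D5:**
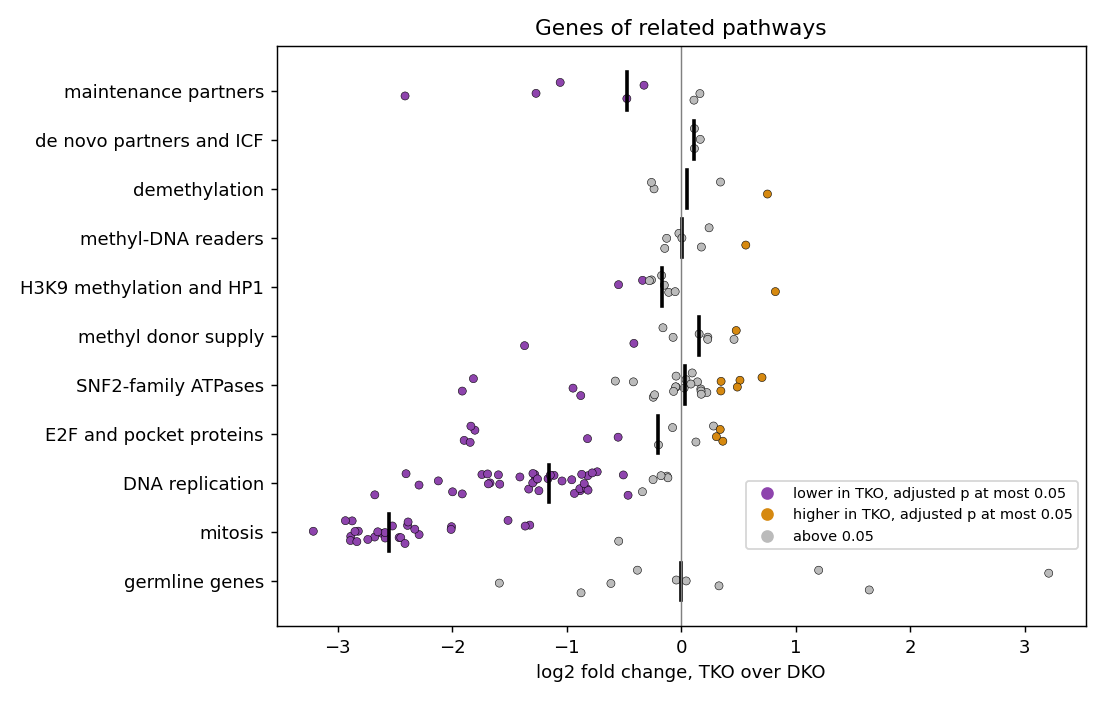
Log2 fold change of TKO over DKO for each tested gene of 11 lists, purple where lower and orange where higher at an adjusted p of at most 0.05, with a black bar at the median of a list. The mitosis and DNA replication lists lie to the left at medians of -2.55 and -1.15, the 3 genes of the de novo list lie between 0.11 and 0.17 (median -0.043 with total counts in place of TMM), the other lists straddle 0, and the far points of the germline list are genes with few counts.

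The pattern over the 6 libraries was also compared with those of 12902 genes with a mean of at least 50 normalized counts, by the root mean square difference of centred log2 levels. The nearest to Hells were Neurog2, a neurogenic transcription factor, at 0.189, the cohesin protector Sgol1 at 0.198 and the kinetochore gene Casc5 at 0.245. Nearest to Cdca7 were Fam111a at 0.111, Gtse1 at 0.112 and Dtl at 0.117, and nearest to Uhrf1 were Sgol2 at 0.065, the condensin gene Ncaph at 0.095 and the ribonucleotide reductase gene Rrm2 at 0.109. Cdca7l was nearest to Dcx, the doublecortin gene of immature neurons, at 0.048, then to the centromere genes Cenpi at 0.094 and Cenpa at 0.096. Dnmt1 was nearest to Soga1, Gamt and H2afy2, within 0.047 to 0.056. The nearest gene was Smc3 of cohesin for Uhrf2 (0.022), Mat2a for Dnmt3a (0.018) and 5430405H02Rik for Dnmt3b (0.085), and none of these 3 passed the test. Within the 8 genes the closest pairs were Uhrf2 with Dnmt3a (0.192) and Cdca7 with Uhrf1 (0.235). The distance is not scaled to a gene's spread, so genes that vary little lie close whatever their pattern. In DKO replicates 1 and 2 the centred level was 0.13 and 0.077 for Uhrf2, but -0.058 and -0.22 for Dnmt3a. Hells was at 0.476 from Cdca7, 0.545 from Cdca7l and 0.551 from Uhrf1, all nearer than Dnmt1 at 1.08.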

How the data were processed

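Whole-retina mRNA libraries (TruSeq Stranded mRNA, paired-end) were grouped by genotype from the sample titles. The authors deposited raw read counts per gene symbol. The study's methods name STAR and HTSeq on GRCm38, with few alignments per read allowed, whereas the submitters' processing notes list TopHat2, featureCounts and DESeq2 with mm10 and GRCm38. Versions in those notes and the strand setting are not given in the sources used here, so overlapping genes and near-identical copies are less certain.

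Genes with a summed count under 10 were removed. Counts were tested in R 4.3.3 with edgeR 4.0.16 (TMM scaling, quasi-likelihood F test, no covariates), with Benjamini-Hochberg adjustment over 16904 genes and a threshold of 0.05. A normalized count is a count divided by its library's TMM-scaled size over the mean such size. Exon lengths and coordinates come from GENCODE M21 (GRCm38), in which 22711 of 24062 symbols had 1 gene, and promoters from RefSeq GRCm38.p6. Exact permutation tests used ratios of raw counts (Python 3.11.15, scipy 1.17.1). The edgeR step was tested on simulated data, and the outcome is not reported here. No pair of replicates was alike within counting noise, with a chi-square of 8.97 to 26.6 per degree of freedom.

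Alternatives were DESeq2 1.42.0, 3 scalings, 3 filters, robust dispersions, a block for the replicate number, leaving out each retina, an adjusted p of 0.01, 2 pseudocounts for the ratios and a mean of log2 counts over a list. The genes and lists were chosen with earlier results of these data known. The text names the 8 genes, Rb1 and Rbl1, the passing genes of a list with the most counts (up to 4 in each direction), up to 2 others with the most counts, and the 3 genes nearest in pattern (pseudocount 0.5). Zbtb24, Dnmt3l, Tdg, Hltf, 2810417H13Rik and the marker genes were named after their values were seen. The planned comparison of paralog proteins was not made here. A few genes covered by these naming choices are not reported here.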

Additional observations from a re-analysis of the deposited data

How the results depend on the processing

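The 5 calls among the 8 genes were made with edgeR under RLE, upper-quartile and total-count scaling, with DESeq2 and with 3 other filters, and 4 were made with robust dispersions (without Uhrf1, log2 fold change -2.46, adjusted p = 0.0552). No log2 fold change of the 8 genes changed sign in any of the 15 alternatives, in which Hells ranged from -3.08 to -2.69 (adjusted p at most 0.0404). With 1 retina left out, between 2 and 5 of the 8 genes passed, with log2 fold changes from -2.89 to -1.91 for Cdca7, -2.12 to -1.66 for Cdca7l, -0.87 to -0.60 for Dnmt1 and -3.15 to -2.06 for Uhrf1. The 3 genes that did not pass ranged from -0.53 to -0.25 for Dnmt3b, -0.13 to -0.010 for Uhrf2 and 0.17 to 0.30 for Dnmt3a. Over all genes, 647 to 3590 then passed (2799 with all libraries), 404 to 1973 lower and 214 to 1617 higher, and 474 to 1493 met the study's criteria, while 29 to 98 of the 158 genes of the lists passed. At an adjusted p of 0.01, 561 genes passed, 345 lower and 216 higher, and 421 met the study's criteria. With total counts only, 2610 genes were lower and 778 higher, where TMM gave 1556 and 1243, since the median of all genes moved from -0.011 to -0.17. Usp7 (-0.050), Nsd1 (-0.043), Setd2 (-0.046) and Rbl1 (-0.036) then turned negative.

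The labels do not say whether the replicate numbers pair the samples, and no such number is shared beyond the label. Deviations of same-numbered samples from their group means correlated at 0.067, -0.053 and -0.203, and not every sample correlated best with its own number. With 3 samples a group these correlations cannot exclude a pairing, and the main fit used none. In the fit with a replicate block, 106 genes passed (82 lower, 24 higher), 90 met the study's criteria, 1 of the 8 genes passed (Hells, adjusted p = 0.0404) and 0 of the genes of the lists, 105 of which had an unadjusted p of at most 0.05. Under the block the log2 fold changes were -2.34 for Cdca7, -1.83 for Cdca7l, -0.72 for Dnmt1 and -2.59 for Uhrf1.

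Among the single genes named for the lists, signs that changed with 1 retina left out were those of Chd3 (-0.14 to 0.0026), Chd4 (-0.095 to 0.033), E2f3 (-0.15 to 0.016), E2f6 (-0.34 to 0.043) and Rbl1 (-0.15 to 0.36), none of which passed, and among the lists those of the demethylation, SNF2 and germline medians. With the mean of log2 counts over the replication list, the log2 ratio difference of Hells was -1.68 in place of -1.85 and that of Dnmt1 0.48 in place of 0.31. The cause of these changes was not tested. With 3 libraries a group and 42 to 73 counts a library for Cdca7l, Hells and Dnmt3b in TKO retinae, small differences in these genes were not detectable.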
